A study of Mus musculus with 2 samples.

Results

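The pyruvate and citric acid cycle genes described here are 30 mouse genes found by symbol among the 55536 Ensembl genes of the GENCODE M21 gene tables. They comprise the mitochondrial pyruvate carrier, the pyruvate dehydrogenase complex with its kinases and phosphatases, the enzymes of the citric acid cycle, and the cytosolic or NADP-linked isocitrate, malate and malic enzymes. All 30 symbols matched exactly 1 gene. The RNA came from the liver of B6NCrl mouse embryos at 12.5 days of gestation, with male and female embryos pooled. The study held 1 group of 2 biological replicates, a pool of 120 embryos (replicate 1) and a pool of 88 embryos (replicate 2), so no treatment, genotype or stage was compared. Each polyA library was made by oligo-dT priming from 10 ng of RNA with added ERCC spike-ins and was fragmented by Nextera tagmentation. A pool averages over many embryos and over every cell type of the organ, so the SD between the pools does not hold the variation between individual animals.

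Pyruvate made by glycolysis enters the mitochondrion through the carrier and is converted to acetyl-CoA by pyruvate dehydrogenase, which the kinases switch off and the phosphatases switch on by phosphorylation and dephosphorylation of its alpha subunit. Citrate synthase joins acetyl-CoA to oxaloacetate, and the cycle then releases CO2 and yields NADH, succinate and a nucleoside triphosphate before malate dehydrogenase regenerates oxaloacetate. At this stage of gestation the mouse liver is a site of blood formation as well as a developing metabolic organ, and mitochondria of red cell precursors also need succinyl-CoA from the cycle to make haem.

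The deposited libraries summed to 38293265 and 35399872 expected counts, with spike-ins at 4.99% and 5.40% of TPM (a transcript level scaled by transcript length and to a fixed library sum). All 8 red cell markers, globins included, lay at 100 TPM or more and summed to 242000 ± 3160 TPM (SD, n = 2). All 7 hepatoblast markers lay at 10 TPM or more and summed to 10300 ± 176 TPM. The values therefore describe a tissue in which red cell transcripts were abundant, and fewer cells of a type and less RNA per cell cannot be told apart for any level below. Shorter marker lists summed to 780 ± 76.7 TPM for megakaryocytes, 288 ± 10.1 TPM for mesenchyme, 170 ± 1.64 TPM for macrophages and 42.3 ± 2.24 TPM for endothelium. The heart markers summed to 15.2 ± 7.47 TPM and the skeletal muscle markers to 38.5 ± 6.08 TPM.

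Of the 30 genes, 29 had a mean level of at least 1 TPM, 24 of at least 10 TPM and 11 of at least 100 TPM. Among all 22028 protein-coding genes the same levels were reached by 54.3%, 32.1% and 5.38%. The median over the 30 genes was 67.5 ± 2.45 TPM (SD, n = 2), beside 1.81 TPM over all protein-coding genes and 14.1 TPM over the protein-coding genes at 1 TPM or more. Together the genes took 0.247% of TPM in replicate 1 and 0.241% in replicate 2. No gene lay between 10 and 20 TPM, so 24 also reached 20 TPM, beside 22.4% of all protein-coding genes. The 6 genes below that gap were the kinases Pdk2 and Pdk4, the phosphatases Pdp1 and Pdp2, and the malic enzymes Me1 and Me3. The 30 genes lie on 15 chromosomes, with Pdha1, Pdk3 and Idh3g on the X chromosome.

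**Figure D1:**
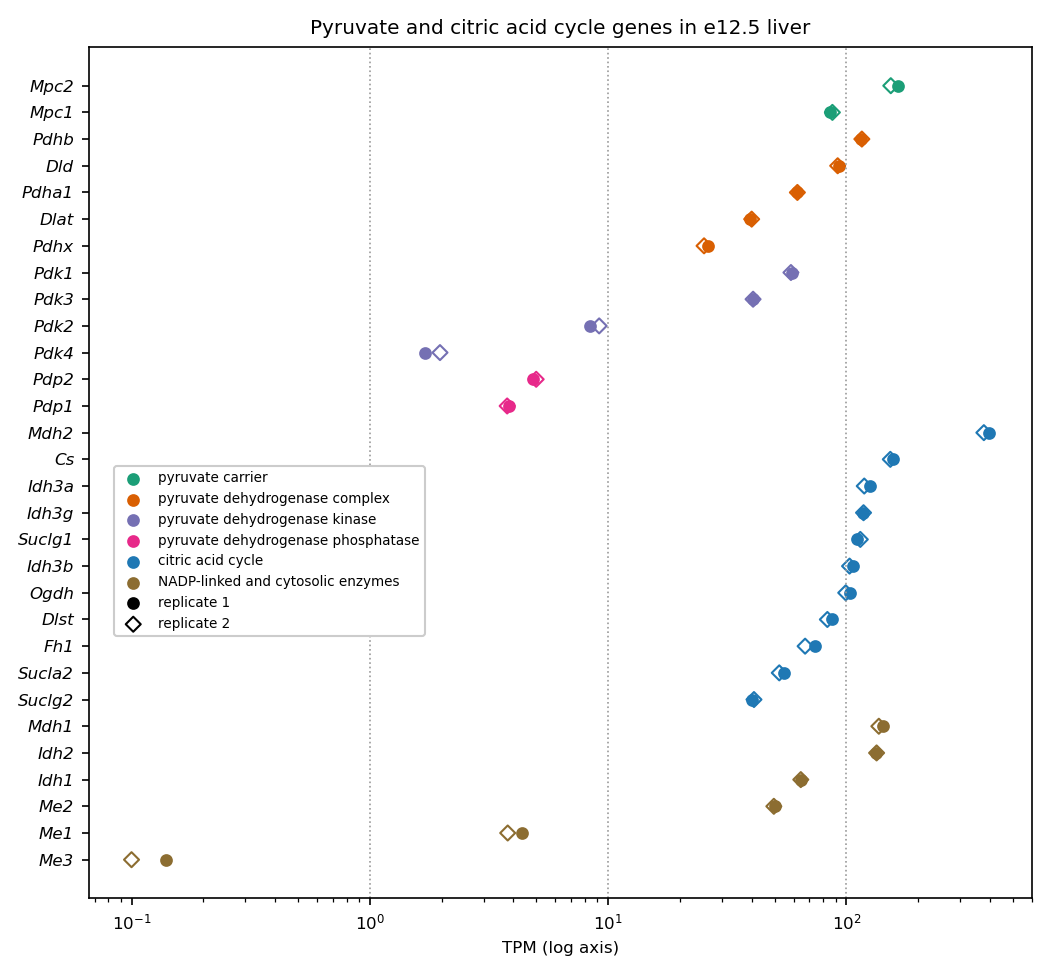
TPM of each of the 30 genes in replicate 1 (filled circles) and replicate 2 (open diamonds) on a log axis, coloured by role, with dotted lines at 1, 10 and 100 TPM. Mdh2 lies highest at 397 and 377 TPM, the kinases spread from Pdk1 near 59 TPM to Pdk4 under 2 TPM, and Me3 lies lowest at 0.14 and 0.10 TPM.

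The mitochondrial pyruvate carrier is a heteromer of Mpc1 and Mpc2, through which pyruvate crosses the inner membrane. Mpc2 was measured at 164 TPM in replicate 1 and 154 TPM in replicate 2, and Mpc1 at 85.4 and 87.3 TPM. The ranges did not overlap, and Mpc2 was 1.84 ± 0.115 times as high as Mpc1 (SD of the ratio, n = 2). Mpc2 is divided by the annotation into the complete coding transcript Mpc2-201, at 69.5% of its TPM, and the short processed transcript Mpc2-203, at 29.6%. Counting protein-coding transcripts only, the ratio of Mpc2 to Mpc1 was 1.29. Here and below, protein-coding transcripts include those whose coding sequence is incomplete in the annotation, which complete coding transcripts leave out. Mpc1 shares 9.72% of its 75-base stretches with Mpc1-ps, itself listed at 36.4 and 41.1 TPM, so reads within those stretches match both genes. The posterior SD of the Mpc1 count in the deposited tables was 0.660% of the count, the second highest among the 30 genes after Me1.

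The pyruvate dehydrogenase complex consists of a heterotetrameric decarboxylase of Pdha1 and Pdhb, the acetyltransferase core Dlat, the core-binding protein Pdhx and the lipoamide dehydrogenase Dld. Its 5 genes lay between 25.8 and 116 TPM, with a median of 62.2 ± 0.120 TPM. Pdhb, the beta subunit of the decarboxylase, was at 116 TPM in both libraries. Pdha1, the alpha subunit that carries the regulatory phosphorylation sites, was at 62.1 and 62.3 TPM. Subunits that occur in equal number in the enzyme thus differed in transcript level, with Pdha1 at 0.537 ± 0.000338 of Pdhb, and the order was the same with protein-coding transcripts only (0.571). An SD of 2 ratios this close can understate counting error. The ratios rested on 5540 and 5088 counts for Pdha1 and 5321 and 4992 for Pdhb.

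Dld, which also serves the 2-oxoglutarate, branched-chain and glycine cleavage complexes, was at 93.0 and 91.9 TPM, 2.32 ± 0.0401 times Dlat. Dlat was at 39.5 and 40.0 TPM and Pdhx at 26.3 and 25.3 TPM, a ratio of 1.54 ± 0.0560. That ratio depended on which transcripts were counted. A processed transcript of 770 bases, Dlat-202, took 29.8% of Dlat TPM but only 6.65% of its expected count in replicate 1, since TPM weighs a short transcript by its length. With protein-coding transcripts only, Dlat was at 1.03 times Pdhx. By complete coding transcripts Dlat was at 26.6 ± 0.94 TPM and Pdhx at 23.7 ± 0.721 TPM. Pdha1, Pdhb, Dld and Pdhx each had over 90% of their TPM in complete coding transcripts in both libraries.

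Phosphorylation of Pdha1 by the kinases Pdk1 to Pdk4 inactivates the complex. Pdk1, known as a hypoxia-inducible kinase, was at 59.2 TPM in replicate 1 and 58.5 TPM in replicate 2. Pdk3 was at 40.6 TPM in both libraries. Pdk2, the widely expressed isoform, was at 8.39 and 9.17 TPM. Pdk4, which is induced by fasting in adult tissues, was at 1.70 and 1.97 TPM. The levels of the 4 kinases did not overlap between any pair, and Pdk1 took 53.5% ± 0.555 of their summed TPM, Pdk3 36.9% ± 0.0948, Pdk2 7.98% ± 0.481 and Pdk4 1.67% ± 0.169. Pdk4 rested on 123 and 104 expected counts, whose exact 95% Poisson intervals of 102 to 147 and 85 to 126 overlap and cover counting error only.

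The lead of Pdk1 over Pdk3 was not kept when only transcripts with a complete coding sequence were counted. Pdk1-201, its complete coding transcript of 11 exons, took 37.1% ± 1.06 of Pdk1 TPM, or 21.9 ± 0.792 TPM. The processed transcripts Pdk1-208 and Pdk1-204, for which the annotation gives no coding sequence, took 32.2% and 14.8%. The corresponding value of Pdk3, whose TPM lay almost wholly in Pdk3-201, was 40.5 ± 0.0566 TPM. By complete coding transcripts Pdk3 therefore took 56.5% ± 0.327 of the kinase total and Pdk1 30.5% ± 0.963, the reverse of their order by gene level. By expected counts the coding transcript of Pdk1 held a larger part, 62.2% in replicate 1 and 59.5% in replicate 2, since it is 5185 bases long.

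Pdk1-208 differs from Pdk1-201 inside the gene by the absence of 2 exons, the second and the seventh of Pdk1-201, and it also starts 122 bases away. Their 3' ends differ as well, at chr2:71901986 for Pdk1-208 and chr2:71903858 for Pdk1-201. The transcripts are 2972 and 5185 bases long, so the 2 exons are not the only sequence that separates them. The exons are shown because the estimate for Pdk1-201 rests in part on them. They lie on the plus strand of chromosome 2 in the GRCm38 build at chr2:71875406-71875547 and chr2:71887382-71887458, are 142 and 77 bases long, and neither length is a multiple of 3. Capitals mark the exon and lower case the 15 adjoining bases of the spliced Pdk1-201 sequence on each side.
Pdk1-201 exon 2: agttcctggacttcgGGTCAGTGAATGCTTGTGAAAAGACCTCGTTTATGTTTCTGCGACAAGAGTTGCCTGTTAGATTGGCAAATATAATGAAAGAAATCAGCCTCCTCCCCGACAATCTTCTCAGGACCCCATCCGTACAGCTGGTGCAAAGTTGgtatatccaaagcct
Pdk1-201 exon 7: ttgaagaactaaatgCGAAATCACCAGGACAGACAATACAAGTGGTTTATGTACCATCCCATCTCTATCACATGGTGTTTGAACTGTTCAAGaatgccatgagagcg

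The phosphatases Pdp1 and Pdp2 reverse the kinases' action. Pdp2 was at 4.86 and 4.99 TPM and Pdp1 at 3.82 and 3.77 TPM, a ratio of Pdp1 to Pdp2 of 0.771 ± 0.0216. Both genes were below 10 TPM, and the summed kinases stood 12.6 ± 0.0494 times as high as the summed phosphatases by TPM. By complete coding transcripts only, an alternative chosen after seeing the data, that ratio was 8.20 ± 0.0896. Pdp1 had 6 annotated transcripts, all coding, of which Pdp1-203 took 46.2% in replicate 1 and 28.8% in replicate 2 and Pdp1-204 21.1% and 47.6%. The order of these transcripts turned between the libraries, on 389 and 336 expected counts for the whole gene. Pdpr, the regulatory subunit of the phosphatase, was at 4.44 ± 0.255 TPM.

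Among the 11 genes of the mitochondrial cycle steps the median was 105 ± 2.28 TPM, all 11 were at 10 TPM or more, and 7 were at 100 TPM or more. Citrate synthase, Cs, which commits acetyl-CoA to the cycle, was at 157 TPM in replicate 1 and 153 TPM in replicate 2. Mdh2, the mitochondrial malate dehydrogenase that closes the cycle, was the highest of all 30 genes at 397 and 377 TPM, 2.50 ± 0.0473 times Cs. Fh1, the fumarate hydratase of the preceding step, was at 73.6 and 67.1 TPM, 0.182 ± 0.00541 of Mdh2.

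The NAD-linked isocitrate dehydrogenase is built from alpha, beta and gamma subunits, of which the alpha subunit occurs at a higher number in the enzyme. Idh3a, the alpha subunit, was at 126 and 119 TPM. Idh3g, the gamma subunit, was at 118 TPM in both libraries, and Idh3b, the beta subunit, at 106 and 103 TPM. Idh3a stood at 1.10 ± 0.0318 times the mean of Idh3b and Idh3g by gene level, and its range did not overlap that of Idh3g. With protein-coding transcripts only, the ratio was 0.615, on the other side of 1, because the retained intron transcript Idh3a-203 took 48.5% of Idh3a TPM in the mean of the libraries. The coding transcripts Idh3a-201 and Idh3a-205 took 34.6% and 14.0%. Idh3b shares 5 exonic bases with Nop56, a gene on the opposite strand at 321 ± 7.76 TPM.

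The 2-oxoglutarate dehydrogenase complex takes its decarboxylase from Ogdh, its succinyltransferase core from Dlst and its lipoamide dehydrogenase from Dld. Ogdh was at 103 TPM in replicate 1 and 99.4 TPM in replicate 2, and Dlst at 87.3 and 83.2 TPM, a ratio of 1.19 ± 0.00705. Dld was at 1.09 ± 0.0276 times Dlst. Ogdh, Dlst and Dld thus lay closer together than Pdhb and Dlat, which differed by 2.91 ± 0.0174 times. Pdha1, the other decarboxylase subunit, lay nearer to Dlat, at 62.2 ± 0.120 TPM beside 39.8 ± 0.339 TPM. Dlst had 13 annotated transcripts, the most of the 30 genes, and its complete coding transcript Dlst-201 took 73.4% and 79.7% of its TPM. With protein-coding transcripts only, the ratio of Ogdh to Dlst was 1.45. By complete coding transcripts Dld was at 90.4 ± 0.976 TPM, Ogdh at 88.5 ± 2.23 TPM and Dlst at 65.2 ± 1.62 TPM. Under the older M4 annotation Dld was at 107 ± 1.02 TPM and Dlst at 76.2 ± 1.56 TPM. In both cases Dld stood further above Dlst than by the M21 gene level.

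Ogdh was divided mainly between a pair of complete coding transcripts that differ by mutually exclusive forms of the fourth exon, with start sites 972 bases apart. Ogdh-201 took 62.0% and 62.1% of Ogdh TPM and Ogdh-202 21.7% and 23.1%, so the division was alike in both pools. The alternative exons are shown because they change the coding sequence while both transcripts keep a long annotated coding sequence, of 3069 and 3057 bases. They lie on the plus strand of chromosome 11 at chr11:6316978-6317080 for Ogdh-201, 103 bases long, and chr11:6316765-6316855 for Ogdh-202, 91 bases long. A global alignment placed 61 identical bases in 110 columns, 55.5% identity. Capitals mark the exon and lower case the adjoining bases, which are the same in both transcripts.
Ogdh-201 exon 4: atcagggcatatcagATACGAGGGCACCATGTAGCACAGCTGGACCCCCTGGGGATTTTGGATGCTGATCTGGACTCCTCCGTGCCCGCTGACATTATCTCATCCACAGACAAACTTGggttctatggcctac
Ogdh-202 exon 4: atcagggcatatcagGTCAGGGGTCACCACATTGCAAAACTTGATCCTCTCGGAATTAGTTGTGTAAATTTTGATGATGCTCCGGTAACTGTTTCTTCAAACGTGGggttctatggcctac

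Succinyl-CoA synthetase pairs the alpha subunit Suclg1 with a beta subunit, either ADP-forming Sucla2 or GDP-forming Suclg2. Suclg1 was at 111 and 114 TPM. Sucla2 was at 54.6 and 52.3 TPM, and Suclg2 at 40.0 and 40.9 TPM. The beta subunits did not overlap, with Sucla2 taking 56.9% ± 1.16 of their sum, and the shared alpha subunit stood at 1.20 ± 0.0372 times both beta subunits together. The margin of Sucla2 over Suclg2 and the excess of Suclg1 over their sum depended on the annotation. Suclg2 was at 0.758 ± 0.0360 of Sucla2 under M21 and at 0.955 under the older M4 release. Under M4 Suclg1 was at 109 ± 1.34 TPM, Sucla2 at 55.0 ± 1.7 TPM and Suclg2 at 52.5 ± 0.693 TPM. The alpha subunit thus lay close to the sum of the beta subunits there.

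Each beta subunit was read from a pair of coding transcripts. Sucla2-203 and Sucla2-201 took 59.8% and 37.3% and have coding sequences of the same length, 1389 bases. Suclg2-201 and Suclg2-204 took 58.6% and 40.8%, and their start sites lie 25918 bases apart. Suclg2-204 begins its coding sequence in its own first exon, which Suclg2-201 lacks, and the coding lengths are 1299 and 1152 bases. The 87 coding bases of that exon lie on the minus strand of chromosome 6 at chr6:95718689-95718775, have a GC content of 73.6%, and are shown because they lie in the coding sequence of Suclg2-204 and not in that of Suclg2-201. They are part of a difference of 147 coding bases between the transcripts. Capitals mark the coding bases from the start codon and lower case the next 15 bases.
Suclg2-204 exon 1, coding part: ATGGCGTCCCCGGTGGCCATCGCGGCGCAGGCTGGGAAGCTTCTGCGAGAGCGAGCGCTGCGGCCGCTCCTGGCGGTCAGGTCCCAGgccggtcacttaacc

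Mdh2, the highest gene, was estimated at 67.2% ± 0.825 in its complete coding transcript Mdh2-201 and at 30.9% in Mdh2-203, which the annotation classes as subject to nonsense-mediated decay. Mdh2-203 was listed at 121 and 118 TPM, above the level of every kinase and of Pdhb. It lacks the second exon of Mdh2-201 and starts 182 bases away, and its annotated coding sequence is 153 bases against 1014 in Mdh2-201. The skipped exon is 169 bases long, not a multiple of 3, and lies on the plus strand of chromosome 5 at chr5:135783305-135783473. It is shown, with its neighbours in the spliced transcript in lower case, because its absence separates the second-largest transcript of the highest gene from the coding form. Mdh2 remained the highest of the 30 genes by complete coding transcripts, at 260 ± 12.5 TPM.
Mdh2-201 exon 2: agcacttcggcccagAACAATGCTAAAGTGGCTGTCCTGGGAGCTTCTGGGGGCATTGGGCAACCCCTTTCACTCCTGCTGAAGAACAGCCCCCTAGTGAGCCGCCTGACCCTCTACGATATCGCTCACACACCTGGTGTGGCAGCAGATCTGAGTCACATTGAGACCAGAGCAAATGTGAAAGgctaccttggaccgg

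The cytosolic and NADP-linked enzymes exchange carbon and reducing power with the cycle. Mdh1, the cytosolic malate dehydrogenase of the malate-aspartate shuttle, was at 143 and 137 TPM, and mitochondrial Mdh2 was 2.77 ± 0.0151 times as high. Idh2, the mitochondrial NADP-linked isocitrate dehydrogenase, was at 133 and 134 TPM, and cytosolic Idh1 at 64.8 and 64.4 TPM, a ratio of 2.07 ± 0.0210. In both pairs the mitochondrial paralog was the higher, and this order was the same with protein-coding transcripts only, at 2.18 and 1.88. The protein-coding transcripts of Mdh1 include the incomplete Mdh1-202, at 22.6% of its TPM. By complete coding transcripts Mdh2 was at 260 ± 12.5 TPM and Mdh1 at 88.3 ± 2.6 TPM. The corresponding levels were 121 ± 2.99 TPM for Idh2 and 63.9 ± 0.0849 TPM for Idh1. The 3 subunits of the NAD-linked enzyme summed to 1.74 ± 0.0396 times Idh1 and Idh2 together.

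The malic enzymes convert malate to pyruvate. Me2, the mitochondrial form that uses NAD, was at 50.1 TPM in replicate 1 and 49.6 TPM in replicate 2. Me1, the cytosolic NADP-linked form known for supplying NADPH to fat synthesis, was at 4.37 and 3.79 TPM. Me3, the mitochondrial NADP-linked form, was at 0.14 and 0.10 TPM. Me2 thus took 92.2% ± 0.702 of the family TPM, and the groups of values did not overlap. Me3 rested on 7 and 5 expected counts, with exact 95% Poisson intervals of 2.81 to 14.4 and 1.62 to 11.7, and the deposited tables listed no TPM for its complete coding transcript. Me1 had the highest posterior SD of the 30 genes, 0.868% of its count, and shares 13.9% of its 75-base stretches with Gm7049, listed at 0 in both libraries, and 2.96% with Gm7329, listed at 1.24 and 0.11 TPM. Of the 30 genes, 9 share such a stretch with another gene, counting matches in the same orientation only. These 9 include Suclg2 (11.6% with Gm15163, at 0.33 and 0.29 TPM) and Pdhb (6.86% with Gm6123, at 0.68 and 0.54 TPM). Exonic bases are shared with a gene on the opposite strand by 6 of the 30. The largest parts were 23.1% of Mpc1 with 4930506C21Rik (0.57 and 0.64 TPM) and 16.1% of Pdha1 with Map3k15 (0.22 and 0.23 TPM).

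**Figure D2:**
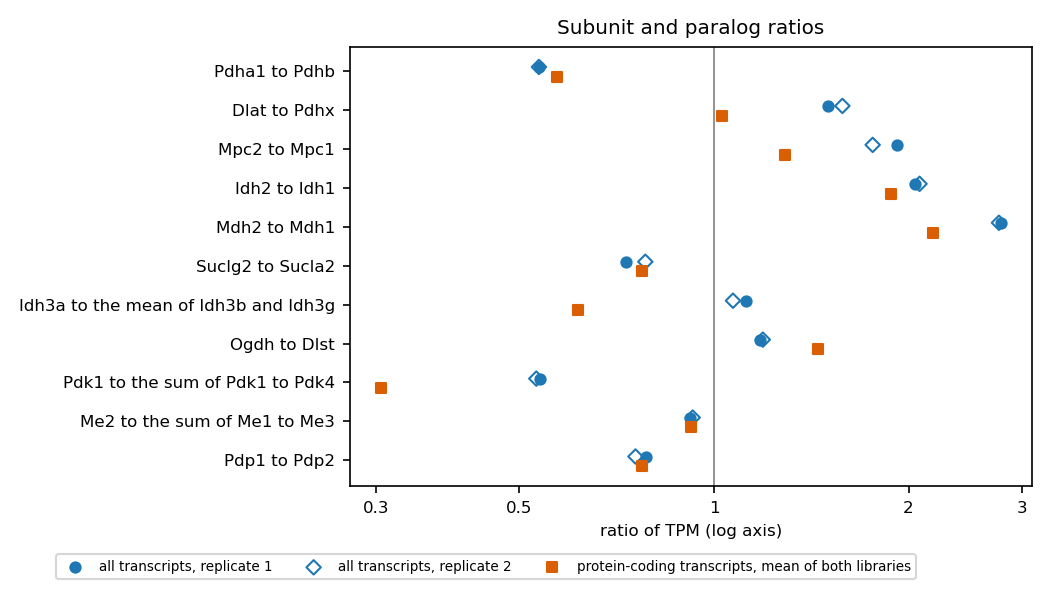
Ratio of TPM for 11 subunit and paralog comparisons on a log axis, for all transcripts in replicate 1 (circles) and replicate 2 (diamonds) and for protein-coding transcripts only (squares, mean of both libraries), with a line at 1. The library values lie close together in each comparison, while counting protein-coding transcripts only moves Idh3a from 1.10 to 0.615 of the mean of its partners and Pdk1 from 0.535 to 0.305 of the kinase sum.

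Ordered by mean level, the 30 genes form 29 neighbouring pairs, of which 6 had overlapping library values. These were Mpc2 with Cs, Idh3b with Ogdh, Mpc1 with Dlst, Pdk3 with Suclg2, Suclg2 with Dlat, and Me1 with Pdp1. In the other 23 pairs the lower value of the higher gene exceeded the upper value of its neighbour, although with 2 libraries the range is a narrow measure of spread. This order was read under M21 and was not kept throughout under M4. There Idh3a, at 102 ± 4.63 TPM, lay below Idh3g, at 123 ± 0.177 TPM.

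Over all 30 genes the annotation lists 166 transcripts, and 46 of them took at least 10% of their gene's TPM in both libraries. Complete coding transcripts held 80.8% ± 0.424 of the summed TPM, transcripts annotated for nonsense-mediated decay 5.50% ± 0.00707, processed transcripts 5.63% ± 0.0990 and retained introns 5.36% ± 0.120. At least 2 transcripts at 10% or more were found in 13 genes, which were Dlat, Pdk1, Pdk4, Pdp1, Mpc2, Idh3a, Ogdh, Sucla2, Suclg2, Fh1, Mdh1, Mdh2 and Me3. Among the 28 genes at 1 TPM or more with several annotated transcripts the count was 12, or 42.9%, beside 60.8% of the 10919 protein-coding genes under the same conditions. Among protein-coding transcripts only the count was 7 of 28, or 25%, beside 43.5%. The median complete coding share of those 28 genes was 90.6%, beside 85.3% over the 10919 genes.

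The complete coding share was under 70% in both libraries in 6 of the 28 genes, 21.4% beside 29% of all such genes, and 90% or more in 13 of them, 46.4% beside 38.1%. The 6 were Dlat, Pdk1, Pdk4, Idh3a, Mdh1 and Mdh2. Mdh1 held 63.2% of its TPM in Mdh1-201, with 22.6% in Mdh1-202, whose coding sequence is incomplete in the annotation, and 14.1% in the processed transcript Mdh1-203. Pdk4 held 61.8% and 46.5% in Pdk4-201 by TPM, yet 94.6% and 90.4% by expected count, since the retained intron transcript Pdk4-202 is 412 bases long and rested on 7 and 10 counts. In Fh1 the incomplete Fh1-205, of 542 bases, took 19.4% of TPM on 228 and 157 counts. The share of a short transcript by TPM can thus rest on few reads, and reads spanning single exon junctions were not among the values used.

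**Figure D3:**
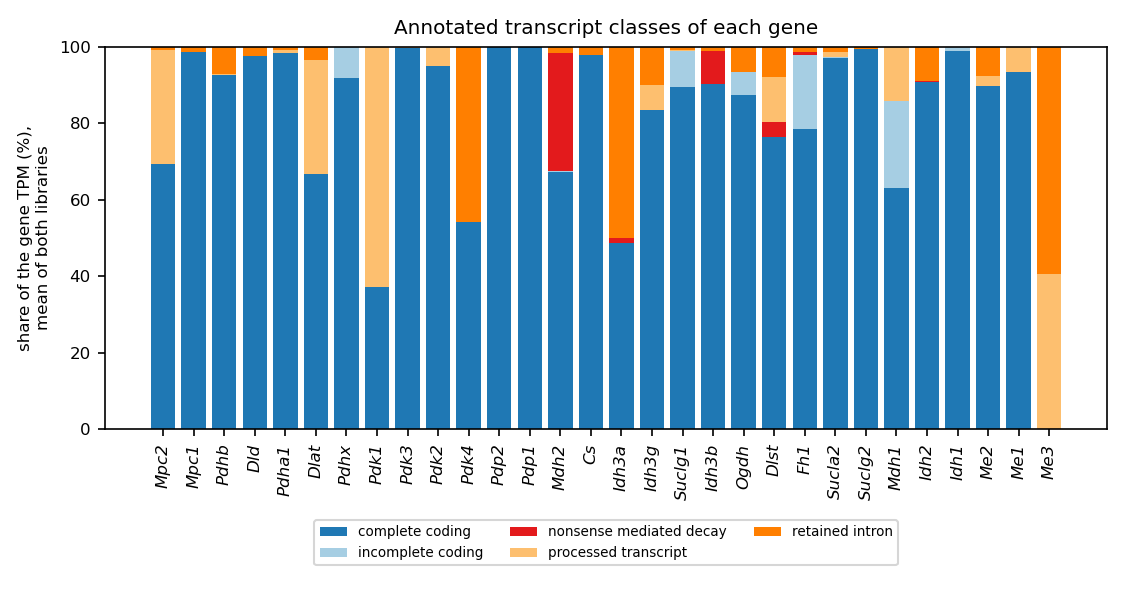
Share of each gene's TPM (%, mean of both libraries) in transcripts annotated as complete coding, incomplete coding, nonsense-mediated decay, processed transcript or retained intron, with the 30 genes ordered by role. Pdk1 (37.1%), Idh3a (48.6%) and Pdk4 (54.1%) have the lowest complete coding shares among the genes at 1 TPM or more, and Mdh2 has the largest share annotated for nonsense-mediated decay.

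Agreement between the pools was described as the log2 ratio of replicate 2 over replicate 1 on TMM-scaled expected counts, which compares these libraries and not conditions. Of the 29 genes with a mean count of at least 10, 0 passed a 2-fold ratio with an exact 95% binomial interval that excluded equal scaled levels, where 2.35% of all 17343 genes compared did. At 1.5-fold the count was also 0, beside 4.37%. Of the 17343 genes compared, 7364 lay at 10 TPM or more, against 24 of the 29, so these sets differ in level. The ratios ran from -0.13 for Pdk4 to 0.13 for Pdk2, with a median of -0.02 over the 29 genes and 0 over all genes compared. Pdk4 was lower in replicate 2 by counts (123 and 104), with an interval of -0.52 to 0.26, but higher by TPM (1.70 and 1.97). Of the 29 genes, 10 lay above 0 and 19 below.

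For genes at 10 TPM or more the interval itself excluded equal scaled levels in 7 of 24, or 29.2%, close to the 29.3% of all 7364 genes at that level. The 7 were Fh1, Mdh2, Mpc2, Idh3a, Mdh1 and Ogdh, lower in replicate 2, and Dlat, higher in replicate 2. The largest of these shifts was -0.08 on the log2 scale, shown by Fh1, Mdh2, Mpc2 and Idh3a. The median absolute ratio was 0.04 over the 29 genes and 0.05 over genes at 10 TPM or more. The chi-square per gene against equal scaled levels was 2.83 over the 29 genes and 3.75 over all genes compared, where counting error alone would give about 1. The sets in this comparison differ in level as well.

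**Figure D4:**
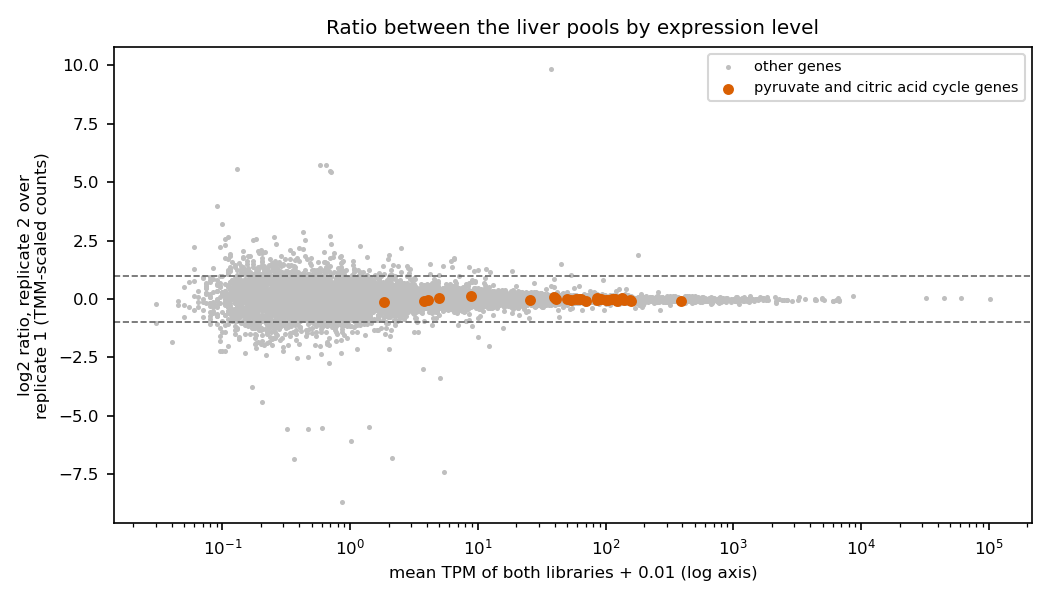
Log2 ratio of replicate 2 over replicate 1 on TMM-scaled counts against the mean TPM of both libraries plus 0.01 on a log axis, for 17343 genes with a mean count of at least 10, with dashed lines at 2-fold. The 29 pyruvate and citric acid cycle genes (orange) lie between -0.13 and 0.13, well inside the lines.

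The same reads had been quantified by the authors with the GENCODE M21 and M4 annotations. On the scale log2((TPM M21 + 1)/(TPM M4 + 1)), 0 of 29 genes at 1 TPM or more passed 1.5-fold in both libraries, beside 5.51% of 13235 genes. The median was -0.05 over the 29 genes and -0.04 over all genes compared. Suclg2 shifted most, by -0.37, from 52.5 ± 0.693 TPM under M4 to 40.0 and 40.9 TPM under M21, with 5 annotated transcripts in place of 1 and an effective length of 2768 bases in place of 2180. It was also the only gene of the 29 whose values, with 1 TPM added, differed by more than 25% of the lower value in both libraries, as 10.1% of all genes compared did. Pdp2 shifted by -0.33 and has 1 transcript in both releases, but its effective length was 5593 bases under M21 and 3386 under M4. Its level was 6.30 and 6.60 TPM under M4 and 4.86 and 4.99 TPM under M21. Without the added 1 TPM, Pdp2 too differed by more than 25% of the lower value in both libraries.

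Dld was lower under M21 by -0.21 and Idh3a and Dlst were higher by 0.25 and 0.16. All of these gained transcripts, Dlst from 1 to 13 and Idh3a from 1 to 5. Of the 30 genes, 11 have more transcripts in M21. In Idh3a the expected count rose only from 7666 to 7885 in replicate 1 while the effective length fell from 2304 to 1923 bases. The ratio of Idh3a to the mean of Idh3b and Idh3g was accordingly 0.881 under M4 and 1.10 under M21, on different sides of 1.

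**Figure D5:**
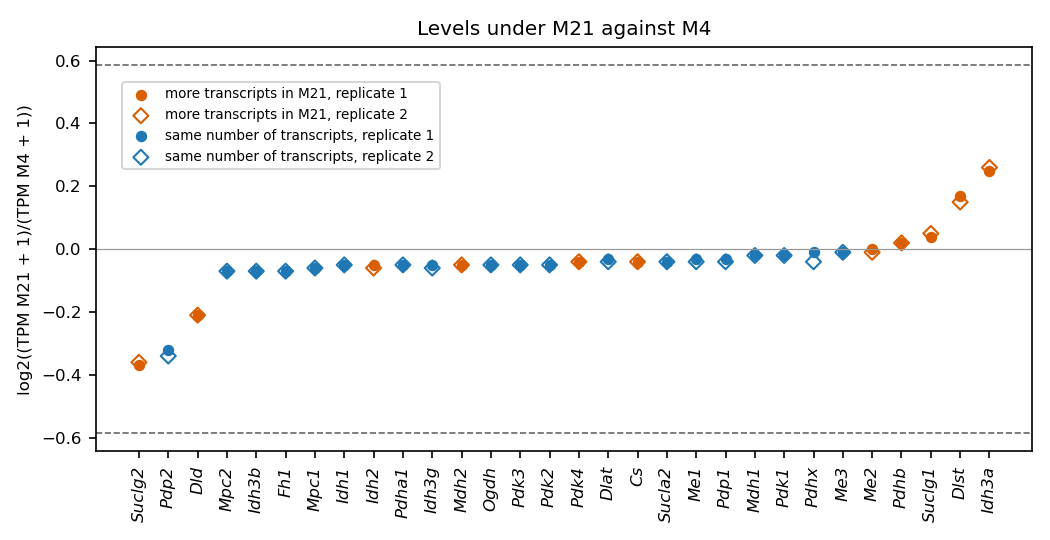
Log2((TPM M21 + 1)/(TPM M4 + 1)) of each of the 30 genes in replicate 1 (circles) and replicate 2 (diamonds), ordered by the mean, with dashed lines at 1.5-fold and colour marking genes with more transcripts in M21. Suclg2 lies lowest at -0.37 and Idh3a highest at 0.25, all inside the dashed lines.

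The remaining steps of the cycle and the routes around pyruvate were read from lists of related genes. Of 17 further cycle genes, 16 were at 1 TPM or more, 11 at 10 TPM or more and 5 at 100 TPM or more, with a median of 28.8 ± 0.304 TPM. The highest were the succinate dehydrogenase subunits Sdhd (291 ± 5.14 TPM), Sdhb (204 ± 4.70 TPM), Sdha (162 ± 1.58 TPM) and Sdhc (124 ± 8.55 TPM), which lay above Fh1, the step that follows theirs. Mdh1b was listed at 0.09 TPM in replicate 1 and 0 in replicate 2. Of the testis counterparts, 0 of the 3 matched genes reached 1 TPM, with Ldhc at 0.13 and 0.18 TPM, Csl at 0.08 and 0 TPM and Pdha2 listed at 0 in both libraries.

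Among 16 genes of pyruvate entry and exit, 14 were at 1 TPM or more and 12 at 10 TPM or more. Ldha, which reduces pyruvate to lactate, was the highest at 1452 ± 68.2 TPM, followed by the pyruvate kinase Pkm (389 ± 30.2 TPM), the lactate exporter Slc16a3 (141 ± 2.90 TPM) and the liver and red cell pyruvate kinase Pklr (140 ± 4.81 TPM). The gluconeogenic Pck1 (0.06 and 0.17 TPM) and the lactate dehydrogenase Ldhd (0.10 and 0.09 TPM) were under 1 TPM.

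All 15 genes of lipoate and cofactor supply were at 1 TPM or more, and 11 at 10 TPM or more. They were led by the iron-sulfur cluster genes Glrx5 (607 ± 5.42 TPM), Bola3 (266 ± 4.96 TPM), Isca1 (184 ± 4.16 TPM) and Isca2 (99.9 ± 3.90 TPM), which serve lipoate synthesis among other uses. The sister branched-chain dehydrogenase lay lower, with a median of 17.9 ± 0.460 TPM over 5 genes, of which its kinase Bckdk was the highest at 68.5 ± 0.707 TPM, followed by Bckdhb (19.5 ± 0.983 TPM), Bckdha (17.9 ± 0.460 TPM) and Dbt (9.43 ± 0.226 TPM). Bckdha, the subunit phosphorylated in that complex, lay below its kinase, and Pdha1 lay below the 4 pyruvate dehydrogenase kinases summed (110 ± 0.283 TPM) but above each of them singly.

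Of 13 carriers and glutamate entry genes, 12 were at 1 TPM or more and 11 at 10 TPM or more, led by Got2 (178 ± 12.1 TPM), Glud1 (118 ± 5.01 TPM), Slc1a5 (107 ± 0.205 TPM) and Slc25a1 (84.2 ± 1.80 TPM), with Aspg at 0.39 and 0.42 TPM. Of 15 regulators, all 15 were at 1 TPM or more and 7 at 10 TPM or more, led by Myc (116 ± 3.61 TPM), Nrf1 (47.5 ± 1.78 TPM), Tfam (46.3 ± 5.14 TPM) and Hif1a (28.2 ± 0.417 TPM). The levels of these regulators are given beside the pyruvate and citric acid cycle genes as measurements only, and with 1 tissue at 1 stage their relation to them was not tested.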

How the data were processed

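PolyA RNA-seq of 2 pools of embryonic liver was used. Per the file headers, the deposited gene and transcript tables hold the authors' expected counts, TPM, posterior mean TPM, effective lengths and posterior standard deviations, made on mm10 per the labels with GENCODE M21 or M4. The aligner, quantifier and strand setting were not given in the sources used here. TPM as deposited was the main level, since it is scaled per length. Expected counts, rounded for intervals, were compared between libraries after TMM scaling (edgeR 4.0.16, R 4.3.3; prior count 0.5, mean count of at least 10), checked on simulated data; DESeq2 1.42.0 size factors were an alternative. With 1 group there was no test between conditions, and no p-value is given. Means carry the SD of 2 libraries, which can understate counting error where the values happen to lie close. Depth was 35399872 to 38293265 expected counts, and intervals cover counting error only.

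Transcript shares are shares of gene TPM; exon sequences were read from the GENCODE M21 transcripts (GRCm38) and shared stretches are exact same-strand matches of 75 bases to transcripts of other genes. All 30 genes are named. So are the 4 highest of each list of related genes and up to 2 genes of a list under 1 TPM. Pdpr and the named genes that overlap the 30 genes or share stretches with them were chosen after their values were seen. The genes and lists were chosen with earlier results of these data known. The numbered entries without a gene name held 0.000124% to 0.000139% of counts and stayed out of library sizes.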

Additional observations from a re-analysis of the deposited data

How the results depend on the processing

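Counts of genes at 10 TPM or more, and of genes differing between pools, kept their value under all alternatives run. The median level was 70.5 TPM with M4, 71.1 TPM rescaled to Ensembl genes and 70.4 TPM over genes at 1 TPM or more. With protein-coding transcripts only, the ratios were 0.571 (Pdha1 to Pdhb), 1.03 (Dlat to Pdhx), 1.29 (Mpc2 to Mpc1), 1.88 (Idh2 to Idh1), 2.18 (Mdh2 to Mdh1), 0.615 (Idh3a to its partners), 1.45 (Ogdh to Dlst) and 0.305 (Pdk1 in the kinase sum), and 7 genes in place of 13 had at least 2 transcripts at 10%. With M4 they were 0.564 (Pdha1 to Pdhb), 2.83 (Mdh2 to Mdh1), 0.955 (Suclg2 to Sucla2), 0.881 (Idh3a to its partners), 1.38 (Ogdh to Dlst), 0.529 (Pdk1 in the kinase sum) and 0.606 (Pdp1 to Pdp2). With a pseudocount of 1 TPM they were 0.541 (Pdha1 to Pdhb), 0.525 (Pdk1 in the kinase sum), 0.891 (Me2 in the malic enzyme sum) and 0.809 (Pdp1 to Pdp2). With posterior mean TPM they were 2.04 (Idh2 to Idh1), 1.18 (Ogdh to Dlst), 0.915 (Me2 in the malic enzyme sum) and 0.793 (Pdp1 to Pdp2). Apart from the fewer transcripts counted, the cause was not tested. Scaling by spike-ins shifted every gene by -0.12 on the log2 scale, so that the median replicate ratio was -0.14. With 1 TPM added to each value and a limit of 25% of the lower value, 1 gene, Suclg2, differed between annotations. No paired analysis was possible because the series holds 1 group. By posterior mean TPM Me3, at 7 and 5 counts, was 112% higher.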
